A study of Mus musculus with 12 samples.

Results

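The L1, contactin and NCAM adhesion molecules were followed in mouse neural stem/progenitor cells with and without Ythdf2. The 10 genes were taken by name, namely the L1 family (L1cam, Chl1, Nrcam and Nfasc), 4 contactins (Cntn1, Cntn2, Cntn3 and Cntn4) and the NCAM family (Ncam1 and Ncam2). All 10 of 10 were found among the 24525 genes counted, and no measured value was used to choose them. Of these, 9 passed the filter on low counts and were tested. L1cam did not pass it, and is given by its values alone.

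The cells were neurospheres, free-floating clusters of neural progenitors, grown from the brains of C57BL/6 embryos at E14.5 and collected at passage 1 in medium with EGF at 20 ng/ml and bFGF at 10 ng/ml. The 3 wild-type libraries carried both Ythdf2 alleles. The 3 Ythdf2-/- libraries came from embryos lacking the region of the 5′ UTR and exon 1 in every tissue, since the floxed allele had been deleted by a ubiquitous Cre and the resulting heterozygotes intercrossed. Ythdf2 is a reader protein that binds N6-methyladenosine (m6A) in mRNA and promotes decay of the bound transcript. The libraries are the inputs of an m6A immunoprecipitation, that is, fragmented mRNA before the antibody was added. The 6 immunoprecipitated samples were not analysed here. The study calls the libraries of a group biological replicates. Neither it nor the labels say how many embryos each library came from, so p-values measure the spread between these libraries.

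All of these molecules belong to the immunoglobulin superfamily and sit on the surface of neurons and glia, where they bind one another or matrix proteins. L1 family members span the membrane and attach to ankyrin and the spectrin skeleton, and they guide axon growth and assemble the axon initial segment and the node of Ranvier. Contactins lack a cytoplasmic part and are held by a GPI anchor, so they act through partners such as Caspr proteins and receptor phosphatases. Ncam1, the classical neural cell adhesion molecule, occurs in membrane-spanning and GPI-anchored forms and carries polysialic acid in the developing brain.

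Sequencing depth was similar between libraries, with 11029827 to 13185778 counted reads. Ythdf2 itself was at 71.9 to 91.4 CPM, the reads of a gene scaled to the size of its library, in the wild type and at 11.1 to 14.7 CPM in the Ythdf2-/- libraries. Wild-type replicate 3 stood apart from all others: the first principal component, which held 74.2% of the variance, placed it at 91.0 and the other 5 libraries between −30.6 and −6.04. It was higher than all 5 others for 33.8% of the genes tested and lower than all 5 for 34.4%. Reads on Y-linked genes were present in wild-type replicates 1 and 2 and in Ythdf2-/- replicate 3 (1111 to 2147 reads) and nearly absent from the other 3 libraries (0 to 1), so that each group held libraries of both kinds. The log2 fold changes of the 9 adhesion genes tested are therefore given with and without wild-type replicate 3, and for some of them also the ratios within libraries of like Y-linked reads. Across the transcriptome, edgeR's quasi-likelihood test with Benjamini-Hochberg adjustment called 0 of 13112 genes (0%) at an adjusted p under 0.05, and 476 genes (3.63%) had an unadjusted p under 0.05. DESeq2 called 31 genes (0.237%), with an unadjusted p under 0.05 for 4.29%, and limma-voom called 0.

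To learn which adhesion molecules these cells express, levels were compared per gene length, as CPM per kilobase of gene length (RPKM). Ncam1 and Cntn1 stood highest, with mean levels of 77.7 and 59.7 RPKM over the 6 libraries, at the 92.8th and 89.98th percentile of the genes tested. Nrcam followed at 32.7 RPKM. Chl1 (15.7 RPKM) and Ncam2 (10.9 RPKM) lay around the median tested gene, which was at 11.1 RPKM. Nfasc had a mean of 16.0 RPKM that rested on wild-type replicate 3, at 73.5 RPKM. In the other 5 libraries it was at 3.61 to 6.72 RPKM, and without that library its mean was 4.48 RPKM, below Chl1 (16.3 RPKM) and Ncam2 (8.83 RPKM). The remaining 4 genes were barely expressed. Cntn3 was at 0.596 RPKM, Cntn4 at 0.312, L1cam at 0.140 and Cntn2 at 0.131, all below the 6th percentile of the genes tested. L1cam and Cntn2, which mark growing axons of postmitotic neurons, were thus the scarcest of the 10.

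Neighbours in this order did not all differ beyond the spread of the libraries. Ncam1 was above Cntn1 in 6 of 6 libraries, by a ratio of 1.02 to 1.69, yet this order depends on the length used. With the union of all annotated exons as length, the mean level of Ncam1 was 41.3 RPKM and that of Cntn1 53.8 RPKM. Cntn1 was above Nrcam in 6 of 6 libraries by 1.28 to 2.63 times. Nfasc and Chl1 were not in a fixed order, as Nfasc was the higher in 1 library of 6 alone, wild-type replicate 3. Chl1 was above Ncam2 in 4 of 6 libraries. The step from Ncam2 to Cntn3 held in 6 of 6, with ratios of 16.3 to 27.8. The 4 lowest genes overlapped among themselves, with each one above the next in 4 or 5 of 6 libraries.

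Summed over the 10 genes, the level was 172 and 186 RPKM in wild-type replicates 1 and 2, 319 in wild-type replicate 3, and 212, 186 and 209 in Ythdf2-/- replicates 1 to 3. Ncam1, Cntn1 and Nrcam together made up 77.98%, 79.0% and 65.6% of this sum in the wild type and 91.2%, 85.1% and 85.6% in the Ythdf2-/- libraries. Within that, Ncam1 took 31.6% to 34.2% in the wild type and 34.9% to 44.0% in the Ythdf2-/- libraries. Chl1 took 13.7%, 13.3% and 3.99% in the wild type against 3.81%, 4.32% and 8.23%, so that the groups overlapped through wild-type replicate 3. Nfasc made up 1.73% to 3.61% of the sum in 5 libraries and 23.1% in wild-type replicate 3.

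**Figure D1:**
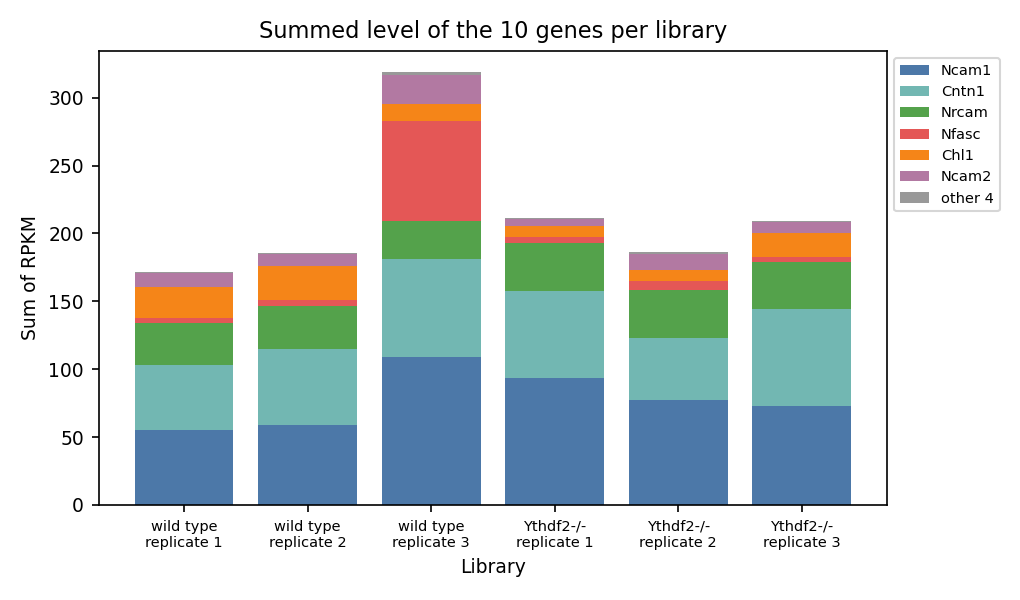
Stacked bars give the RPKM of the 10 genes in each of the 6 libraries, and the grey segment sums Cntn2, Cntn3, Cntn4 and L1cam. Ncam1, Cntn1 and Nrcam fill most of every bar, and the Nfasc segment is wide in wild-type replicate 3 alone, whose sum of 319 RPKM is the highest.

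The modification m6A is deposited mainly in the sequence context GGACT and its variants. The reference transcript of each gene (GRCm38, the one with the longest coding sequence) was therefore searched for the letters GGACT alone, on the strand of the RNA. They occurred at a median of 1.05 per kilobase in 12272 tested genes with a transcript, 92.5% of which held them at least once. Among the well expressed adhesion genes, Nrcam had the highest density, 1.79 per kilobase (8 matches, the 83.8th percentile), and Chl1 (1.19), Nfasc (1.01) and Ncam1 (0.972) lay near the median. Cntn1 (0.353) and Ncam2 (0.164) were among the lowest, at the 11.5th and 7.6th percentile. For the 4 genes that the comparisons below turn on, the match nearest to the stop codon is shown with the motif in capitals, because m6A is known to cluster there. All 4 lie in the last coding part of the transcript, 147 to 374 bases before the end of the stop codon. The transcripts searched for Nrcam, Nfasc and Ncam1 held only 254, 376 and 395 bases after it. All annotated exons of these genes cover 7581, 10379 and 9773 bases, so much of their sequence was not searched. Density and nearest match thus depend on the transcript. In Cntn1 and Ncam2 the nearest match lay 1573 and 2558 bases before that point, in Ncam2 before the start codon.
Nrcam, chr12:44598393-44598417, plus strand: ccttcagacaGGACTgtgaaaaaag
Chl1, chr6:103715305-103715329, plus strand: ctggtttattGGACTgatgtgtgca
Nfasc, chr1:132570553-132570577, minus strand: acagcctggtGGACTatggcgaagg
Ncam1, chr9:49508641-49508665, minus strand: gaggaagaacGGACTccaaaccatg
A match describes the letters of the reference alone, and methylation at these positions was not analysed here.

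The question of the design was whether loss of Ythdf2 changes the amount of these mRNAs. Of the 9 genes tested, 0 of 9 passed an adjusted p under 0.05, beside 0% of all genes, and each had an adjusted p of 0.999 (edgeR). Also 0 of 9 had an unadjusted p under 0.05, beside 3.63% of all genes. By fitted log2 fold change 4 of 9 were higher and 5 lower in the Ythdf2-/- libraries, with a median of −0.47, where 48.1% of all genes were higher and their median was −0.01. In CPM, the groups did not overlap for 1 of 10 genes, Nrcam, beside 10.2% of all genes tested (5.24% with the Ythdf2-/- libraries higher and 4.92% lower). Without wild-type replicate 3 the count turned to 6 higher and 3 lower with a median of 0.22, and 4 of 10 genes did not overlap (Chl1 lower, and Nrcam, Cntn2 and Ncam1 higher), beside 39.0% of all genes. In that comparison 2 of 9, Chl1 and Ncam1, had an unadjusted p under 0.05, beside 16.6% of all genes, and 0 passed adjustment, beside 0.0151%.

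**Figure D2:**
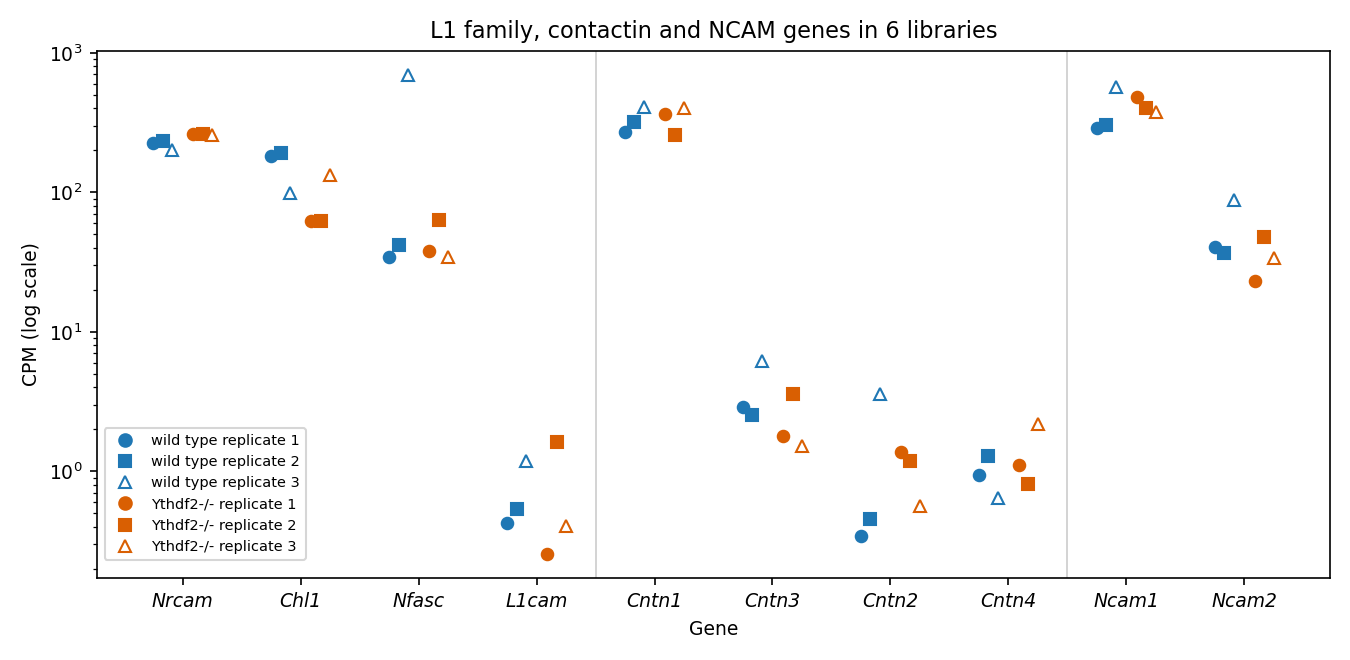
Each point is the CPM (log scale) of a gene in a library, blue for wild type and orange for Ythdf2-/-, with grey lines between the L1 family, the contactins and the NCAM family. Wild-type replicate 3 (open blue triangle) is the highest library for 6 of the 10 genes, and Nrcam is the single gene whose groups do not overlap.

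Nrcam, the neuronal L1-type molecule that binds ankyrin and pairs with Cntn1 and Cntn2, was the steadiest of the 10 genes. It lies at chr12:44328786-44605194 on the plus strand. It was at 227, 233 and 203 CPM in wild-type replicates 1 to 3 and at 262, 262 and 256 CPM in Ythdf2-/- replicates 1 to 3. All Ythdf2-/- libraries were above all wild-type libraries, and the highest library of the 6 was only 1.29 times the lowest. The means were 221 ± 15.9 and 259.9 ± 3.54 CPM (SD, n = 3 each). The log2 fold change was 0.23 (standard error 0.12, 95% interval −0.06 to 0.53), that is 1.18-fold with an interval of 0.960 to 1.44. Its unadjusted p was 0.0994 and its adjusted p 0.999 (edgeR), and the exact two-sided permutation test gave 0.1, the smallest p that 3 against 3 libraries allow. Without wild-type replicate 3, which was the lowest library, the log2 fold change was 0.18 (standard error 0.09). Among libraries with Y-linked reads the ratio of Ythdf2-/- to wild type was 1.11, and among those without 1.29. The first rests on a single Ythdf2-/- library, replicate 3, and the second on a single wild-type library, replicate 3.

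Chl1, the close homologue of L1, which takes part in neuronal migration and in the growth of cortical dendrites, was lower on average in the Ythdf2-/- libraries without a call. The gene spans chr6:103510584-103733038 on the plus strand. It was at 182, 192 and 98.6 CPM in the wild type and at 62.5, 62.3 and 134 CPM in the Ythdf2-/- libraries. Ythdf2-/- replicate 3 was above wild-type replicate 3, so the groups overlapped in this pair alone. The means were 157 ± 51.2 and 86.1 ± 41.1 CPM (SD, n = 3 each), with a log2 fold change of −0.87 (standard error 0.40, 95% interval −1.83 to 0.09) and an unadjusted p of 0.0693 (edgeR; exact permutation p = 0.2).

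The Chl1 levels also moved with the Y-linked reads. Wild-type replicates 1 and 2 and Ythdf2-/- replicate 3, the libraries with such reads, held the 3 highest levels of the 6, and the libraries without them the 3 lowest. Within libraries with Y-linked reads the ratio of Ythdf2-/- to wild type was 0.715, and within those without 0.633. The first has a single Ythdf2-/- library, replicate 3, and the second a single wild-type library, replicate 3, which stood apart from all others. The fit that follows rests on the same split and shares this limit. A fit with a term for these reads gave a log2 fold change of −0.57 (standard error 0.11) with an unadjusted p of 0.00229 and an adjusted p of 0.227 (edgeR), where 11.0% of all genes had an unadjusted p under 0.05 and 0.0991% were called. Without wild-type replicate 3 it was −1.12 (standard error 0.35), and the adjusted p was 0.233 (edgeR). Chl1 was the single gene of the 9 called under any of the 16 alternative settings: limma-voom with sample quality weights, which gave wild-type replicate 3 a weight of 0.0957, put its log2 fold change at −1.33 with an adjusted p of 0.0475, beside 1.15% of all genes called and 28.1% with an unadjusted p under 0.05. Over all 16 settings its smallest adjusted p was this 0.0475 and its smallest under another setting 0.227, and its sign was negative in 16 of 16.

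Nfasc encodes neurofascin, whose neuronal form gathers sodium channels at the axon initial segment and whose glial form joins myelin to the axon beside the node. Its level turned on 1 library. It was at 34.2, 41.9 and 698 CPM in the wild type and at 38.3, 63.8 and 34.4 CPM in the Ythdf2-/- libraries, so that wild-type replicate 3 was 18.2 times the median of the others while those 5 stayed within 34.2 to 63.8 CPM. It held 7622 Nfasc reads and each of the others 400 to 862. The log2 fold change of −2.50 (standard error 1.21, 95% interval −5.43 to 0.43, unadjusted p = 0.0821, edgeR) became 0.26 (standard error 0.29) without this library. The 95% interval thus spans 0.0232-fold to 1.34-fold, the widest of the 9 genes. Nfasc lies at chr1:132564690-132741848 on the minus strand, 21.4 kb from Cntn2, and both were highest in wild-type replicate 3.

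Several markers of other cell types were, like Nfasc, highest in wild-type replicate 3. Myelinating oligodendrocyte markers summed to 3221 CPM in wild-type replicate 3 and to 120 to 443 CPM in the other 5 libraries. Mbp, the myelin basic protein, was 116 times the median of the others there, and Sox10, which marks the oligodendrocyte lineage, 42.4 times. Dcx, the marker of migrating neuroblasts, was 31.5 times and the astroglial Gfap 23.9 times the median of the others. Unlike Nfasc, Gfap was also high in wild-type replicates 1 and 2, with a mean of 196 RPKM against 27.2 RPKM in the Ythdf2-/- libraries. The median of the others was therefore a Ythdf2-/- value for Gfap. The progenitor markers went both ways. Nes (0.249 times), Fabp7 (0.3295 times) and Vim (0.631 times) were below the median of the others, and Sox2 (1.46 times), Pax6 (1.84 times), Hes5 (7.04 times) and Prom1 (7.82 times) above it. The 11 neuronal markers summed to 2092 CPM in this library and to 1124 to 1359 CPM in the others, with Nefl (0.267 times) and Nefm (0.663 times) below the median of the others there. The 8 astroglial markers summed to 9630 against 2881 to 6909 CPM, although 3 of the 8 astroglial markers, Slc1a3 (0.734 times), Slc1a2 (0.857 times) and S100b (0.844 times), were below the median of the others there. The 6 oligodendrocyte precursor markers summed to 1897 CPM there and to 1552 to 1899 CPM in the others, and went both ways in it. Pdgfra (2.87 times) and Gpr17 (10.7 times), like Sox10, were above the median of the others, and Olig1 (0.596 times), Olig2 (0.683 times) and Cspg4 (0.815 times) below it. The part of these markers in the Nfasc level was not tested. In bulk libraries such as these, fewer cells of a type and less RNA per cell cannot be told apart.

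**Figure D3:**
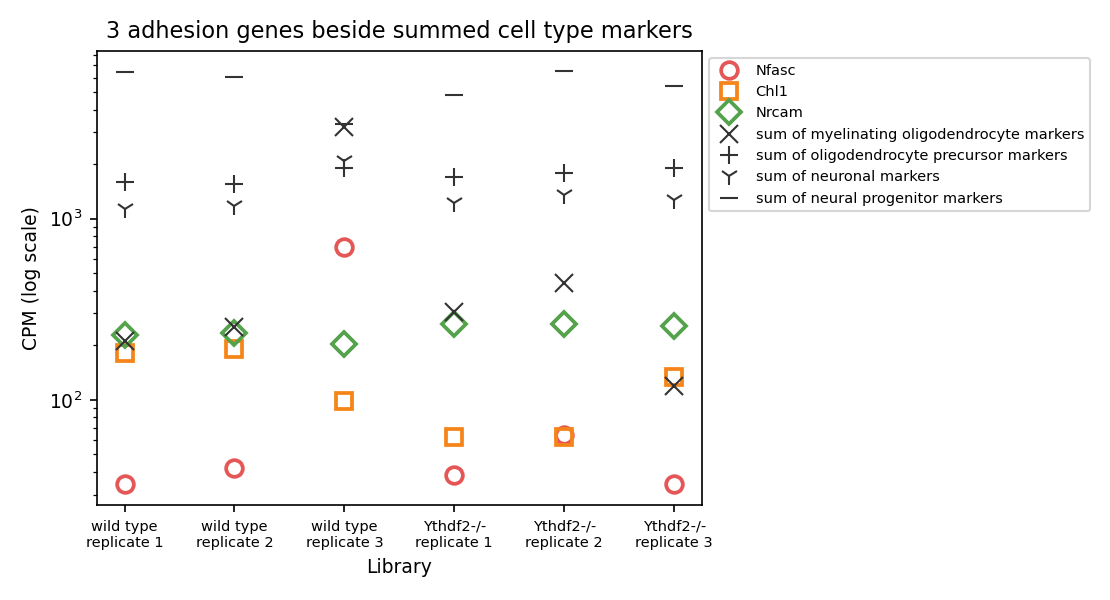
CPM (log scale) of Nfasc, Chl1 and Nrcam (coloured symbols) in each library, with summed CPM of 4 marker lists (black symbols). In wild-type replicate 3 Nfasc rises to 698 CPM and the myelinating oligodendrocyte sum to 3221 CPM, while the progenitor sum is at its lowest, 3340 CPM.

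L1cam, the founding member and an axonal molecule on chromosome X (chr X, 73853778 to 73880838, minus strand), was counted with 5, 7 and 13 reads in the wild type and 3, 22 and 5 reads in the Ythdf2-/- libraries. The corresponding levels were 0.428, 0.534 and 1.19 CPM and 0.256, 1.63 and 0.402 CPM. The groups overlapped fully, and at these few reads no difference was detectable at this depth (exact permutation p = 0.8).

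**Figure D4:**
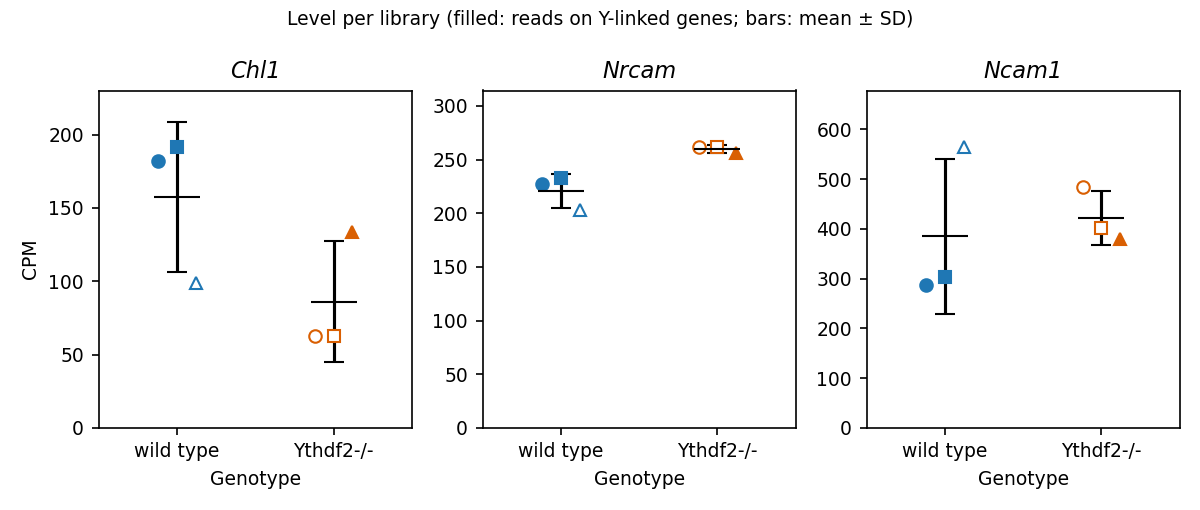
CPM of Chl1, Nrcam and Ncam1 in the 3 wild-type (blue) and 3 Ythdf2-/- (orange) libraries, with the mean and SD as black bars and filled symbols for libraries with reads on Y-linked genes. Chl1 is highest in the filled symbols of both groups, Nrcam separates by genotype, and wild-type replicate 3 (open blue triangle) is the highest library for Ncam1.

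Among the contactins, Cntn1 accounted for nearly all reads. It is the partner of Caspr and of neurofascin at the paranode and binds tenascins and the receptor phosphatase Ptprz1, and lies at chr15:92051152-92341967 on the plus strand. Its levels were 270.2, 321 and 412 CPM in the wild type and 366, 259 and 406 CPM in the Ythdf2-/- libraries. The groups overlapped, with the lowest library in the Ythdf2-/- group and the highest in the wild type. The log2 fold change was 0.04 (standard error 0.24, unadjusted p = 0.875, edgeR), and its 95% interval of −0.54 to 0.62 leaves room for 0.688-fold to 1.53-fold. Without wild-type replicate 3 it was 0.22 (standard error 0.21). Its sign differed between Y-linked strata: the ratio of Ythdf2-/- to wild type was 1.37 with such reads and 0.758 without. Ythdf2-/- replicate 3 was the single Ythdf2-/- library with such reads, and wild-type replicate 3 the single wild-type library without.

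The other 3 contactins were counted with 4 to 68 reads per library. Cntn3, which has been linked to neurite growth, was at 2.91, 2.52 and 6.22 CPM in the wild type and at 1.79, 3.55 and 1.53 CPM in the Ythdf2-/- libraries. The highest library was again wild-type replicate 3, and the groups overlapped. Its log2 fold change was −0.75 (standard error 0.51, unadjusted p = 0.190, edgeR) and −0.23 without that library. Cntn2, the axonal contactin TAG-1, was at 0.342, 0.458 and 3.57 CPM in the wild type and at 1.36, 1.18 and 0.563 CPM in the Ythdf2-/- libraries. Wild-type replicate 3, with 39 reads, was 6.34 times the median of the others, and the other 2 wild-type libraries, with 4 and 6 reads, were the lowest of the 6. The direction followed: the log2 fold change was −0.47 (standard error 0.94) with that library and 1.34 (standard error 0.57, unadjusted p = 0.0552, edgeR) without it. Cntn4, whose locus of 1022510 bases on chromosome 6 was the longest of the 10, was at 0.941, 1.30 and 0.641 CPM and at 1.11, 0.814 and 2.17 CPM. The groups overlapped, and the log2 fold change of 0.49 (standard error 0.50) was 0.27 without wild-type replicate 3 and −0.01 without Ythdf2-/- replicate 3, which held 27 of its reads. Cntn3, Chl1 and Cntn4 lie in that order on chromosome 6, 946 kb and 1945 kb apart, and did not share a pattern: wild-type replicate 3 was the highest library for Cntn3, the lowest for Cntn4 and between the others for Chl1.

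Ncam1 had the highest mean CPM of the 10 as well, and was the highest of them in 3 of 6 libraries (Cntn1 was in 2 and Nfasc in wild-type replicate 3). It lies at chr9:49502129-49799393 on the minus strand, and 266 of its exonic bases overlap Gm11149 on the other strand. Its levels were 287, 304 and 565 CPM in the wild type and 484, 402 and 379.8 CPM in the Ythdf2-/- libraries. Wild-type replicates 1 and 2 were below all Ythdf2-/- libraries and wild-type replicate 3 above them all. The means were 386 ± 156 and 422 ± 54.8 CPM (SD, n = 3 each), and the log2 fold change was 0.13 (standard error 0.30, 95% interval −0.59 to 0.84, unadjusted p = 0.677, edgeR). Without wild-type replicate 3 it was 0.51 (standard error 0.14) with an unadjusted p of 0.0101 and an adjusted p of 0.203 (edgeR). The ratio of Ythdf2-/- to wild type was 1.28 among libraries with Y-linked reads and 0.783 among those without, where wild-type replicate 3 is the single wild-type library.

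Ncam2, the olfactory cell adhesion molecule, which sorts sensory axons, was at 40.3, 36.5 and 88.4 CPM in the wild type and at 23.2, 48.1 and 33.8 CPM in the Ythdf2-/- libraries. It lies at chr16:81200697-81624290 on the plus strand. Wild-type replicate 3 was 2.42 times the median of the others, and the remaining libraries overlapped. The log2 fold change was −0.65 (standard error 0.43, 95% interval −1.68 to 0.38, unadjusted p = 0.174, edgeR) and −0.13 (standard error 0.29) without it.

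**Figure D5:**
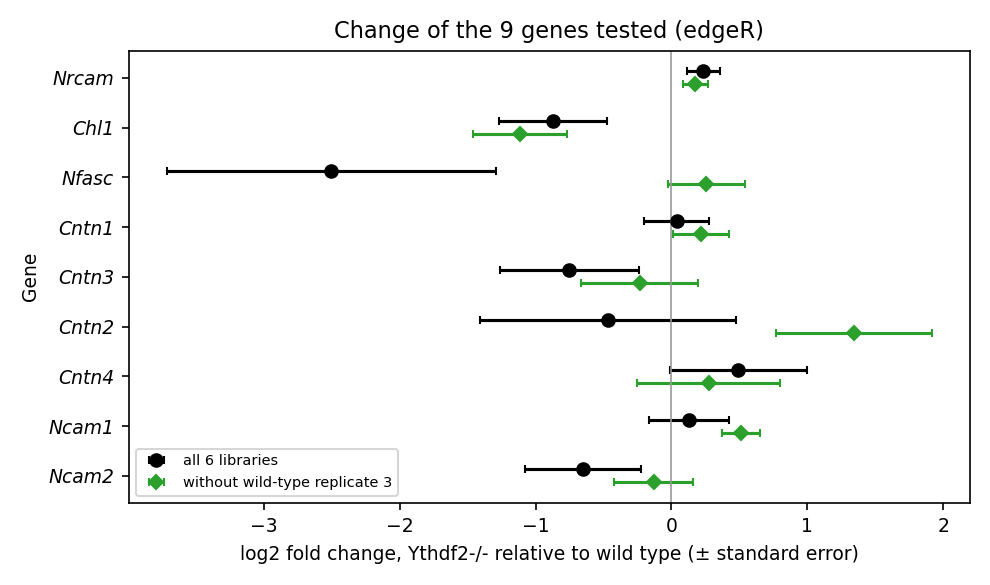
Log2 fold changes of the 9 genes tested, Ythdf2-/- relative to wild type, with standard errors as bars, for all 6 libraries (black circles) and without wild-type replicate 3 (green diamonds). Nfasc moves from −2.50 to 0.26 and Cntn2 from −0.47 to 1.34, while Nrcam stays at 0.23 and 0.18.

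Wild-type replicate 3 was thus the highest library for 6 of 10 genes (Nfasc, Cntn1, Cntn2, Cntn3, Ncam1 and Ncam2), beside 33.8% of all genes tested, and the lowest for 2 of 10 (Nrcam and Cntn4), beside 34.4%. For 5 of 10 it was at least 2-fold off the median of the others, beside 22.2%. These are descriptions of a library, not tests of the group of genes.

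The molecules that these receptors bind and use were described by 7 lists with 72 genes in all, of which 65 passed the filter. In these, 0 of 65 were called, 5 of 65 had an unadjusted p under 0.05 (3.63% of all genes), and 27 were higher and 38 lower with a median log2 fold change of −0.04. The groups did not overlap for 5 of 65 with the Ythdf2-/- libraries higher and for 4 of 65 with them lower. Of all genes tested, 5.24% and 4.92% did so. Not all of these partners are named below. Without wild-type replicate 3, 43 were higher and 22 lower with a median of 0.12, where 51.7% of all genes were higher.

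Of the extracellular ligands, 5 of 11 tested were higher and 6 lower (median −0.08), and 9 higher and 2 lower without wild-type replicate 3 (median 0.18). Ncan, the proteoglycan neurocan, which binds L1, Ncam1 and contactins, was at 800.5 ± 70.2 CPM in the wild type and 1243 ± 275 CPM in the Ythdf2-/- libraries (SD, n = 3 each). Its groups did not overlap, and the log2 fold change was 0.63 (standard error 0.21, unadjusted p = 0.0233, adjusted p = 0.999, edgeR) and 0.56 without wild-type replicate 3. The related brevican, Bcan, was at 1253 ± 326 and 1506 ± 288 CPM, and pleiotrophin, Ptn, at 829.6 ± 367 and 1158 ± 112 CPM, and both overlapped. With wild-type replicate 3 left out, the log2 fold change of Bcan went from 0.27 to 0.50 and that of Ptn from 0.48 to 0.15.

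Of the 14 receptor partners, 8 were higher and 6 lower (median 0.14), and 10 higher and 4 lower without wild-type replicate 3 (median 0.13). Ptprz1, the phosphatase that Cntn1 and Ncan bind, had the highest CPM of the partners (not per length), with 2840 ± 130 CPM in the wild type and 3236 ± 690 CPM in the Ythdf2-/- libraries (SD, n = 3 each). Nrp1, the semaphorin receptor that L1 joins, was at 30.9 ± 5.75 and 45.9 ± 7.92 CPM and did not overlap, with a log2 fold change of 0.57 (standard error 0.21, unadjusted p = 0.0311, edgeR) and 0.42 without wild-type replicate 3. Egfr was likewise higher in each Ythdf2-/- library than in any wild-type one (log2 fold change 0.71, unadjusted p = 0.0642, edgeR, and 0.43 without wild-type replicate 3). It was named after its values were seen. Itgb1 and Prnp, the next most abundant receptors, had log2 fold changes of −0.04 and −0.15 and overlapped; without wild-type replicate 3 these were −0.26 and 0.08.

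Anchors and cytoplasmic partners included 0 called genes. Of 11 ankyrin, spectrin and ERM genes 3 were higher and 8 lower (median −0.12), and 7 higher and 4 lower without wild-type replicate 3 (median 0.11). Ank2 and Sptan1, to which L1 family tails connect, were at 1008 and 1110.1 CPM in the wild type and both overlapped between the groups, as did Sptbn1 (log2 fold change 0.22, and 0.43 without wild-type replicate 3). Of 12 signalling partners 2 were higher and 10 lower (median −0.07, and 5 higher and 7 lower without wild-type replicate 3). Fyn, the kinase downstream of Ncam1 and Cntn1, was at 522 ± 47.9 and 492 ± 68.3 CPM, and Ptpra, which acts on Fyn, had a log2 fold change of −0.07, which was 0.22 without wild-type replicate 3. Ap2m1, the adaptor subunit that takes L1 into endocytic vesicles, was at −0.19 with groups that did not overlap. Rhog, the small GTPase of L1 signalling, was at 24.8 ± 1.91 CPM in the wild type and 36.4 ± 1.56 CPM in the Ythdf2-/- libraries (SD, n = 3 each), which is 0.56 on the log2 scale (standard error 0.13, unadjusted p = 0.00487, adjusted p = 0.999, edgeR) and 0.49 without wild-type replicate 3.

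The enzymes that modify or cut these molecules gave 0 genes with an unadjusted p under 0.05 in edgeR, and 0 called, in both lists. Of 5 tested polysialyltransferase and HNK-1 genes 3 were higher and 2 lower (median 0.03). B3gat1, which builds the HNK-1 epitope, was at 179 ± 98.8 and 182 ± 9.56 CPM (SD, n = 3 each). Wild-type replicate 3 was its highest library, and without it the log2 fold change went from 0.03 to 0.58 (standard error 0.10, unadjusted p = 0.000902, adjusted p = 0.151, edgeR), and all 5 tested genes of this list were then higher and 0 lower. Chst10 and B3gat2 of the same pathway had log2 fold changes of 0.09 and −0.30, and the polysialyltransferases St8sia2 and St8sia4 had only 21 to 122 reads per library. Of 7 sheddase and gamma-secretase genes 3 were higher and 4 lower (median −0.02, and 0.12 without wild-type replicate 3), and Adam10, which sheds L1 and Nrcam, was at −0.02 on the log2 scale with a 95% interval of −0.46 to 0.42, and at −0.18 without wild-type replicate 3. Adam17 was at 0.01, and Ncstn, a gamma-secretase subunit, at 0.20 with groups that did not overlap.

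Of 9 contactin relatives and Caspr genes 5 were tested, and 3 were higher and 2 lower (median 0.19, which ranged from −0.089 to 0.35 when a library was left out). Cntnap2, or Caspr2, which holds potassium channels beside the node, was fitted at −3.93 on the log2 scale (standard error 1.58, unadjusted p = 0.0450, edgeR). In wild-type replicate 3 it was 46.0 times the median of the others, and without that library the log2 fold change was −0.51. Cntnap4 overlapped (log2 fold change 0.24). Cntn6 was at 8.15 ± 0.326 and 5.46 ± 1.98 CPM (SD, n = 3 each), with all Ythdf2-/- libraries below the wild type (unadjusted p = 0.125, edgeR), and Cntn5 at 0.657 ± 0.235 and 1.43 ± 0.501 CPM.

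Of the marker lists, 8 of 10 neuronal markers tested were lower in the Ythdf2-/- libraries (median −0.59), as were 4 of 4 myelinating oligodendrocyte markers (median −3.89), and without wild-type replicate 3 these medians were 0.15 and −0.82. Oligodendrocyte precursor (median −0.36), astroglial (0.03) and progenitor markers (−0.01) had both directions, and their medians were 0.12, 0.18 and −0.20 without that library. Gfap was lower in all Ythdf2-/- libraries, with a log2 fold change of −4.22 (standard error 1.30, unadjusted p = 0.0166, adjusted p = 0.999, edgeR) and −2.85 without wild-type replicate 3. Gpr17 was at −1.85 on the log2 scale, and at 0.40 without that library. The other abundant genes of these lists, Olig1 and Olig2, Slc1a3 and Gja1, and Vim, Fabp7 and Nes, had log2 fold changes of −0.04 to 0.48, and Map2, the most abundant neuronal marker, of −0.02. With wild-type replicate 3 left out they were at −0.22 to 0.88 and Map2 at 0.16, and Olig2, Gja1, Fabp7, Nes and Map2 turned sign. The neuronal Stmn2, with 1 to 19 reads per library, and the progenitor marker Prom1 were lower in all Ythdf2-/- libraries. Their log2 fold changes were −2.33 and −2.43 (unadjusted p = 0.00914 and 0.00639, adjusted p = 0.999 for both, edgeR), and −2.33 and −1.60 without wild-type replicate 3. Microglial and endothelial markers summed to no more than 1.62 CPM in any library, with Ptprc and Cldn5 at 0 in all of them, and mesenchymal markers to 0.666 to 4.26 CPM in 5 libraries and 32.4 CPM in wild-type replicate 3. Pdgfrb, the single mesenchymal marker tested, gave 31.8 CPM of the latter, and Col1a1 was at 0 there. Progenitor markers, which the labelled cell type calls for, were present throughout at a sum of 3340 to 6493 CPM.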

How the data were processed

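Input RNA of 3 wild-type and 3 Ythdf2-/- neurosphere cultures was analysed, grouped by the sample labels. The authors fragmented mRNA, made strand-specific libraries and aligned the reads with TopHat (mm10). They deposited raw counts per gene, which were not normalized. The submitters' processing notes name Bowtie2 2.2.9, RSEM 1.2.15 and featureCounts. The strand setting of the counting is not given in the sources used here. The authors also deposited expected counts, TPM and FPKM per gene; the expected counts sum to 1.97% to 2.40% of the raw counts, so FPKM served as an alternative alone, as log2(FPKM + 1), a scale that understates changes of low genes, and TPM was not used.

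The raw counts were tested with edgeR 4.0.16 in R 4.3.3 (filterByExpr, TMM, glmQLFit with robust estimation, glmQLFTest, genotype as the term) over 13112 genes with Benjamini-Hochberg adjustment. Standard errors are the log2 fold change over the square root of F. CPM used TMM-scaled library sizes, and RPKM divided these by the mean deposited gene length. DESeq2 1.42.0 and limma 3.58.1 were alternatives. The test was checked on simulated counts. Single genes were compared by an exact two-sided permutation test, which cannot go below 0.1 for 3 against 3. Coordinates are those of GRCm38 (mm10), read with the sequences by Python 3.11.15.

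The genes, lists and tests were chosen with earlier results of these data known. Named besides the 10 genes were Ythdf2, partners with an unadjusted p under 0.05 (1 of which is not reported here), the 3 most abundant genes of each list and the markers Dcx, Gfap, Pdgfra and Mbp. Cntn5, St8sia2, St8sia4, Egfr, Sox2, Sox10, Cspg4, Slc1a2, S100b, Nefl, Nefm, Stmn2, Pax6, Hes5, Prom1, Ptprc and Cldn5 go beyond that rule and were chosen after their values were seen. Depth is 11029827 to 13185778 counts per library.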

Additional observations from a re-analysis of the deposited data

How the results depend on the processing

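Over 16 alternative settings, Chl1, Cntn3 and Ncam2 were lower in the Ythdf2-/- libraries in 16 of 16, and the other genes changed sign at least once. Nrcam turned to −0.35 on log2(deposited FPKM + 1), where it rests on few reads. Nfasc was 0.26 without wild-type replicate 3 and 0.041 with FPKM. Cntn2 was 0.23 with limma-voom, 1.29 with sample quality weights, 1.34 without wild-type replicate 3 and 0.71 with FPKM. Leaving out each library in turn gave −0.10 to 0.22 for Cntn1, −0.93 to 1.34 for Cntn2, −3.02 to 0.26 for Nfasc, −0.0096 to 0.78 for Cntn4 and −0.042 to 0.51 for Ncam1. The cause was not tested.

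Genes called numbered 31 with DESeq2, 151 with quality weights, 13 with a term for Y-linked reads, 1 each with RLE size factors, without the low-count filter and where each library had to hold at least 10 counts, 2 with FPKM and 0 to 2 with a library left out. Of the adhesion genes 1 was called, with quality weights. An unadjusted p under 0.05 was held by 1 with DESeq2, 4 with quality weights, 2 with the Y-linked term and 0 to 2 with a library left out. Groups did not overlap for 4 of 10 genes, and 5110 of all genes, without wild-type replicate 3, against 1 and 1332 with it. These separation settings were chosen after seeing the data.

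Leaving out libraries moved the median log2 fold change from −1.33 to 0.18 for the L1 family, from −0.50 to 0.25 for the contactins, from −0.44 to 0.19 for the NCAM family, from −0.75 to 0.22 for the 9 adhesion genes tested, from −0.17 to 0.18 for ligands, from −0.22 to 0.11 for anchors, from −0.080 to 0.12 for sheddases, from −0.20 to 0.26 for polysialyltransferase and HNK-1 genes, from −0.089 to 0.35 for contactin relatives and Caspr genes, from −0.94 to 0.15 for neuronal, from −4.42 to −0.82 for myelinating, from −0.72 to 0.12 for oligodendrocyte precursor, from −0.40 to 0.18 for astroglial, from −0.28 to 0.0041 for progenitor and from −3.15 to 0.91 for mesenchymal markers, of which 1 gene was tested. With all exons as length, the wild-type level of Cntn4 was 0.139 in place of 0.258 RPKM and that of Ncam1 39.5 in place of 74.3.

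Deviations of same-numbered libraries from their group means had correlations of −0.25, −0.24 and −0.39. Deviations within a group of 3 depend on one another, so these values cannot decide whether the numbers pair the libraries. A fit with the replicate number as a block called 0 genes, with 183 at an unadjusted p under 0.05 against 476, and gave 0.19 for Cntn2 and a median of 0.035 for the 9 adhesion genes tested. With 3 libraries a group and 1 apart, a common biological coefficient of variation of 0.332 limits the changes that could be called.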
